A study of Mus musculus with 12 samples.

Results

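The cytosolic ribosomal protein genes were taken as every name in the deposited gene columns that reads Rpl or Rps followed by a number and at most 1 letter of a, l, x or y, together with Rplp0, Rplp1, Rplp2 and Rpsa. Names of pseudogenes ending in -ps, the S6 kinases and Rps19bp1 were left out. The rule found 67 genes, 41 named for the large and 26 for the small subunit, among 16197 names in all. The data came from H3K27ac Hi-ChIP, which ligates chromatin ends that lie close together and then pulls down fragments carrying acetylated lysine 27 of histone H3, a mark of active promoters and enhancers. Hepatocytes were from male C57BL/6 mice without any further treatment, old mice aged 25 months and young mice aged 5 months. Each age had 6 libraries, from 2 biological replicates that were each run in 3 batches of technical repeats. The hepatocytes had been pelleted at low speed from livers digested with collagenase, so the pellet could hold other liver cells.

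The authors deposited 1 network per age, with no replicate or batch named, which leaves no measure of the spread between animals and allows no p-value. A node is a 5 kb bin of the genome, a clique is the authors' name for a set of nodes grouped together, and each node belonged to exactly 1 clique. The value of a gene is the number of nodes in the largest clique that lists it, 0 if none does, and ages are set against each other as log2((old + 1)/(young + 1)). The old network had 40304 nodes in 5973 cliques, mean 6.75 nodes, and the young network had 56928 nodes in 5401 cliques, mean 10.5 nodes. Sequencing depth is unknown, and its part in the differences was not tested. A smaller clique from fewer cells that carry the contacts cannot be told apart from one from weaker contacts in each cell. Of 8 hepatocyte markers 7 were listed at either age, among them Alb with 41 nodes in old and 60 nodes in young. Hnf4a, a hepatocyte transcription factor, was listed in no old clique and in a young clique of 65 nodes, and Serpina1a was listed at neither age. None of 5 Kupffer cell markers was listed. Of 5 markers each, 2 were listed for endothelial cells, 1 for stellate cells, 1 for cholangiocytes and 1 for lymphocytes, with clique sizes of 0 to 7 nodes in old and 2 to 25 nodes in young. Each of these 5 markers had the smaller clique in old. So did all 7 listed hepatocyte markers and 78.5% of the protein-coding genes listed at either age. The part of other liver cells in the results was not tested.

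Ribosomal proteins surround the ribosomal RNA of both subunits, and they are needed in matched amounts, and their genes are known for high transcription in growing and protein-secreting cells such as hepatocytes. Their mRNAs begin with a C followed by a run of pyrimidines, the 5 prime terminal oligopyrimidine (TOP) motif, through which mTORC1 and the RNA-binding protein Larp1 control their translation. The genes are scattered over the genome, usually compact, and many carry small nucleolar RNAs (snoRNAs) in their introns.

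Most ribosomal protein genes sat in smaller cliques in old than in young hepatocytes, in the same proportion as other genes. In old the clique had fewer nodes for 53 of 67 genes, which is 79.1% (95% Wilson interval 67.9 to 87.1, counting error only), beside 78.5% of the 9595 protein-coding genes listed at either age. It was larger in old for 12 genes (17.9%), beside 17.9% of all genes. The clique had the same size at both ages for 2 genes. The median log2 value was -1.08 for the 67 genes and -0.93 for all genes, and over genes listed at both ages it was -0.53 for 45 ribosomal protein genes and -0.63 for 6257 genes. When clique sizes were divided by the mean of their age, 40 ribosomal protein genes (59.7%) were smaller in old, beside 58.6% of all genes.

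For genes with a clique at each age, log2 values ran between -5.22 for Rpl27 and 1.22 for Rps29. In 17 of these 45 genes the value was -1 or lower (37.8%, background 35.7%) and in 3 it was 1 or higher (6.67%, background 3.77%). Just inside the lower threshold were Rps7 at -1.05 and Rpl19 at -1, and just outside it was Rpl13 at -0.84. Clique sizes at the 2 ages had a Spearman rho of 0.609 over the 45 genes and of 0.650 over 6257 genes. These are descriptions across genes that share the same 2 networks and in part the same cliques.

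**Figure D1:**
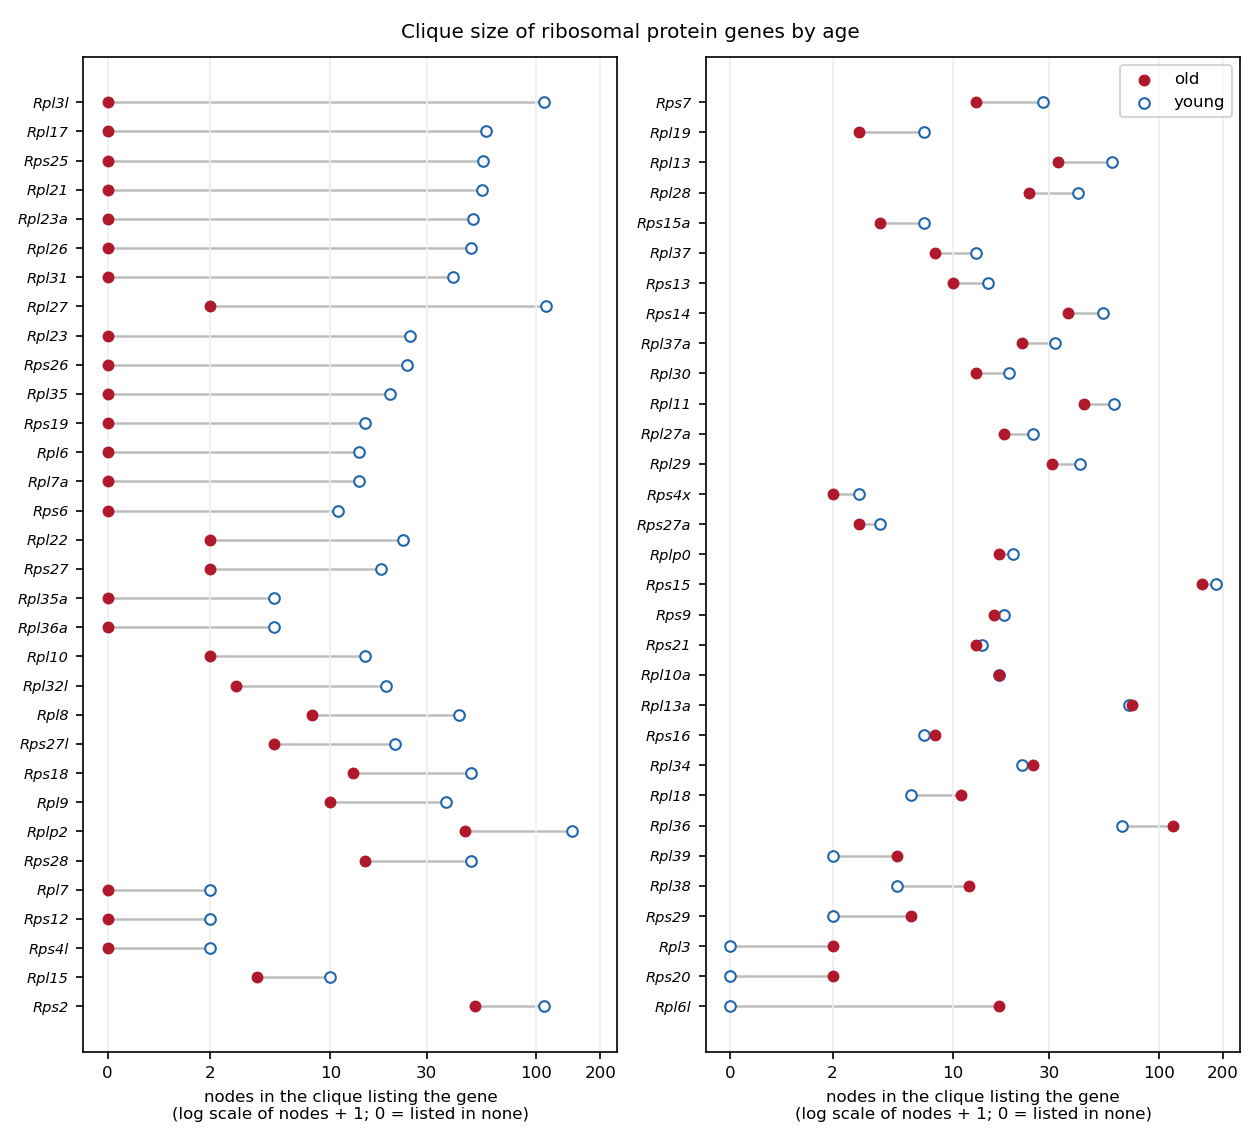
Nodes in the clique listing 63 of the 67 ribosomal protein genes (log axis of nodes + 1), old as filled red points and young as open blue points joined by a line, ordered by log2 value. Red lies left of blue for 51 of those drawn, and 19 genes have their red point at 0.

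**Figure D2:**
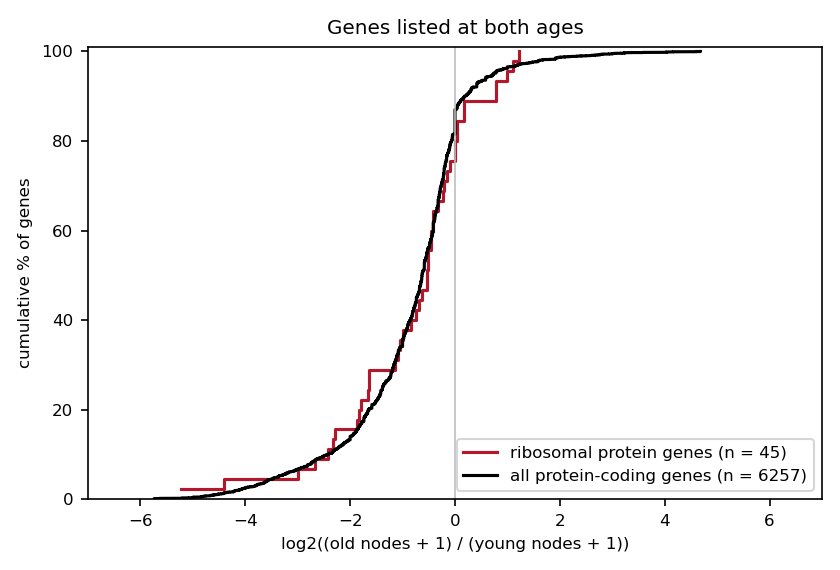
Cumulative share of genes (%) against log2((old nodes + 1)/(young nodes + 1)) for genes listed at both ages, 45 ribosomal protein genes in red and 6257 protein-coding genes in black. Both curves cross 50% below 0, at -0.53 and -0.63, and run close to each other.

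The networks also differed in which genes they listed. In old 48 of 67 ribosomal protein genes were listed (71.6%, interval 59.9 to 81.0), and in young 64 were (95.5%, interval 87.6 to 98.5). All genes stood at 74.6% in old and 90.6% in young. In young only were 19 ribosomal protein genes (28.4%, background 25.4%), and in old only were 3 (4.48%, background 9.43%). No fold is given for these genes. The RefSeq annotation held 83 names that fit the rule, and the other 16, all protein-coding, were listed at neither age. Among them were Rpl4, Rpl5, Rpl10l, Rpl12, Rpl14, Rpl24, Rpl32, Rpl39l, Rpl41, Rplp1, Rps3, Rps10, Rps23, Rps24 and Rpsa. A node lay within 2500 bp of the annotated gene for 6 of these 16 in old and 7 in young, and 7 had none at either age, so a gene that is not listed can still lie in the network.

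Among the 41 large subunit genes, 28 were listed in old and 39 in young, 32 had the smaller clique in old, 8 the larger and 1 the same. The share with the smaller clique was 78.0%, beside 78.5% of all genes. Their median log2 value was -1.58, and -0.58 over those listed at both ages. The large subunit genes listed in young only included several in large young cliques. Rpl3l encodes a paralogue of Rpl3 found mainly in heart and skeletal muscle, and it was listed in no old clique and in a young clique of 109 nodes. Rpl17 was listed in no old clique and in 58 nodes in young. Rpl21 was listed in no old clique and in 55 nodes in young. These are large sets of bins, which in young held 63 gene names around Rpl3l and 11 around each of Rpl17 and Rpl21.

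Rpl23a, a docking site at the mouth of the tunnel for factors that meet the growing protein, was listed in no old clique and in 50 nodes in young. Rpl26, on the tunnel wall and rim, was listed in no old clique and in 49 nodes in young. Rpl31, also at the rim, was listed in no old clique and in 40 nodes in young. Rpl35, another protein of the rim, was listed in no old clique and in 20 nodes in young. Together with Rpl17 these proteins line the end of the tunnel through which a nascent protein leaves the ribosome. Of 8 proteins at that place, a set chosen after the values were seen, these 5 were listed in young only, beside 25.4% of all genes, and 7 had the smaller clique in old, beside 78.5%. The other 3 were Rpl22 with 2 nodes in old and 23 in young, Rpl19 with 3 nodes in old and 7 in young, and Rpl39 with 5 nodes in old and 2 in young.

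The rest of the large subunit genes listed in young only had young cliques of 2 to 25 nodes. Rpl23, which lies on the face where the anti-association factor Eif6 binds, was listed in no old clique and in 25 nodes in young. Rpl6 and Rpl7a each were listed in no old clique and in 14 nodes in young. Rpl35a, mutated in some people with Diamond-Blackfan anaemia, and Rpl36a, at the exit site for transfer RNA, each were listed in no old clique and in 5 nodes in young. Rpl7 was listed in no old clique and in 2 nodes in young, the smallest clique in either table.

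Of the large subunit genes listed at both ages, Rpl27 had the lowest value. Rpl27 (chr11:101442245-101445596) was in 2 nodes in old and in 111 nodes in young, a log2 value of -5.22. It thus lay in a large set in young and in a clique of the smallest possible size in old. Rpl22, needed for lymphocyte development in mice, was at -3.00 with 2 nodes in old and 23 in young. Rpl10, which helps the subunits join and lies on the X chromosome, was at -2.42 with 2 nodes in old and 15 in young. Rpl32l was at -2.32 with 3 nodes in old and 19 in young. Rpl8, close to the site where peptide bonds form, was at -2.29 with 8 nodes in old and 43 in young. Rpl9 was at -1.79 with 10 nodes in old and 37 in young. Rplp2, a protein of the stalk that recruits elongation factors, was at -1.66 with 46 nodes in old and 148 in young, the largest young clique of a large subunit gene.

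Other large subunit genes differed little in size between the ages. Rplp0, the base of the same stalk, had 17 nodes in old and 20 in young, a log2 value of -0.22. Rpl11, which with Rpl5 and the 5S RNA can bind the p53 regulator Mdm2, had 44 nodes in old and 61 in young, a value of -0.46. Rpl10a had 17 nodes at each age. Rpl13a, known in human cells for its role outside the ribosome in silencing inflammatory mRNAs, had 74 nodes in old and 72 in young. The remaining large subunit genes with the smaller clique in old, from Rpl15 at -1.14 to Rpl29 with 31 nodes in old and 42 in young, had 3 to 33 nodes in old and 7 to 60 in young.

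Of the 26 small subunit genes, 20 were listed in old and 25 in young, 21 had the smaller clique in old, 4 the larger and 1 the same. The share with the smaller clique was 80.8%, beside 78.5% of all genes. Their median log2 value was -0.86, and -0.53 over those listed at both ages. Those listed in young only were led by Rps25, which many viral internal ribosome entry sites need, with 56 nodes in young. Rps26, at the channel through which mRNA leaves, was listed in no old clique and in 24 nodes in young. Rps19, the gene most often mutated in Diamond-Blackfan anaemia in humans, was listed in no old clique and in 15 nodes in young. Rps6, the substrate that gave the S6 kinases their name, was listed in no old clique and in 11 nodes in young. Rps12 was listed in no old clique and in 2 nodes in young. The same values held for Rps4l, which RefSeq annotates as a pseudogene.

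Among small subunit genes listed at both ages, Rps27 had the lowest value, -2.66, with 2 nodes in old and 18 in young. Its p53-induced paralogue Rps27l was at -1.87 with 5 nodes in old and 21 in young. Rps18 was at -1.84 with 13 nodes in old and 49 in young, and Rps28 at -1.64 with 15 nodes in old and 49 in young. Rps2, beside the channel through which mRNA enters, was at -1.08 with 51 nodes in old and 109 in young. Rps15, whose tail reaches toward the decoding centre, had the largest cliques of all members, 160 nodes in old and 185 in young. Among listed protein-coding genes the percentile of Rps15, with ties placed at their mid-rank, was 99.6 in old and 99.5 in young. No protein-coding gene was listed in a larger old clique, and other genes listed in that clique tied with Rps15. Rps7 had 13 nodes in old and 28 in young, Rps15a had 4 in old and 7 in young, and Rps13 had 10 in old and 15 in young. Rps14 had 37 nodes in old and 54 in young. Rps9, Rps21, Rps27a and Rps4x each differed by 1 or 2 nodes between the ages.

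Of the 12 genes with the larger clique in old, most differed by a few nodes. Rpl36 (chr17:56610094-56614246) had the largest gain in nodes, with 116 nodes in old and 67 in young, a log2 value of 0.78. Rpl18 had 11 nodes in old and 6 in young, also 0.78. Rpl34 had 25 nodes in old and 22 in young, and Rps16 had 8 nodes in old and 7 in young. At or past the 2-fold threshold were Rps29 with 6 nodes in old and 2 in young, Rpl38, needed in mouse embryos for translating a subset of Hox mRNAs, with 12 nodes in old and 5 in young, and Rpl39 with 5 nodes in old and 2 in young. Rpl3, at the catalytic core of the large subunit, and Rps20 each had 2 nodes in old and were listed in no young clique. Rpl6l, annotated as a pseudogene, had 17 nodes in old and was listed in no young clique. The gain of Rpl3 did not hold by position: cliques with a node within 2500 bp of the gene had 3 nodes in old and 22 in young. For Rps29 the same count was 6 nodes in old and 10 in young, and for Rpl39 it was 5 in old and 4 in young, which is not past the 2-fold threshold.

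Under 3 scalings (as listed, over the mean of the age and centred on the median of all genes), 36 genes were lower in old each time and 12 were higher each time. The direction of the other 19 depended on the scaling. Those that were not larger in old as listed but were so over the age mean numbered 15, and they include Rplp0, Rpl11, Rpl10a, Rps14 and Rps15.

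Of 18 genes known to be mutated in human Diamond-Blackfan anaemia, a failure of red cell production, 15 were listed at either age. This set too was chosen after the values were seen. In 13 of the 15 the clique was smaller in old, beside 78.5% of all genes, and in 2 it was larger, Rpl18 and Rps29. Listed in young only, beside 25.4% of all genes, were 6 of them, Rpl26, Rpl31, Rpl35, Rpl35a, Rps19 and Rps26. Of the 22 genes that hold an annotated snoRNA gene, 16 were smaller in old and 6 larger, with a median log2 value of -0.96. Among the 45 without one, 37 were smaller and 6 larger, with a median of -1.14.

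Ribosomal protein genes rarely shared a clique, since 47 cliques in old and 61 in young listed at least 1 of them. In old Rps2 had a clique of 51 nodes and Rpl3l was listed in none, although bins at Rpl3l lay in that clique. In young Rps2 and Rpl3l shared 109 nodes (chr17:24135001-25280000). That young clique also listed Mlst8, a subunit of mTORC1, and Tsc2, an inhibitor of it. In old Tsc2 was listed in a clique of 2 nodes. Rps28 and Rps18 had separate cliques of 15 and 13 nodes in old and shared 49 nodes in young (chr17:33390001-34210000). Chromosome 7 held the most members, 13, of which 8 were smaller and 4 larger in old, and chromosome 11 held 7, of which 6 were smaller. Over all genes 78.5% were smaller in old and 17.9% larger. The 4 members on the X chromosome, Rpl10, Rpl36a, Rpl39 and Rps4x, had small cliques, with a median of 2 nodes in old and 4 in young.

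Counted once each, cliques listing a ribosomal protein gene were larger and listed more genes than gene-listing cliques in general. They had a median of 13 nodes in old and 21 in young, beside 4 in old and 7 in young for all cliques with a gene. They listed a median of 5 genes in old and 8 in young, beside 2 at each age, and covered a median of 130 kb in old and 240 kb in young. Counted per gene, however, the listed members had a median of 13 nodes in old and 22.5 in young, beside 14 in old and 27 in young for all listed genes. No member was listed in more than 1 clique of an age.

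The nodes of a young clique were often still present in old although the gene was no longer listed with them. Of 984 nodes in the old cliques of members, 83.3% were nodes in young too, beside 82.9% for all old cliques with a gene. Of 2083 nodes in the young cliques, 66.5% were nodes in old, beside 58.7% for all young cliques with a gene. For the 19 genes listed in young only the median share of young nodes found in old was 50.0% (range 0 to 73.4), and for the 45 listed at both ages it was 68.9% (range 0 to 100). These groups were split by listing in old, which went with an old node at the gene start, so part of this difference is built in. The 111 young nodes around Rpl27 had 65.8% in old, spread over 9 old cliques of up to 38 nodes, and 35 of its 40 companions were listed somewhere in old. Around Rps25, 28 of the 33 companions in young were listed somewhere in old, and around Rpl26, 19 of 23 were. The share was lower around other members listed in young only, with 2 of 10 for Rpl17, 3 of 9 for Rpl31 and 13 of 24 for Rpl23a. Of all 8690 protein-coding genes listed in young, 6257 were listed in old too, so such counts are not read as particular to these cliques.

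**Figure D3:**
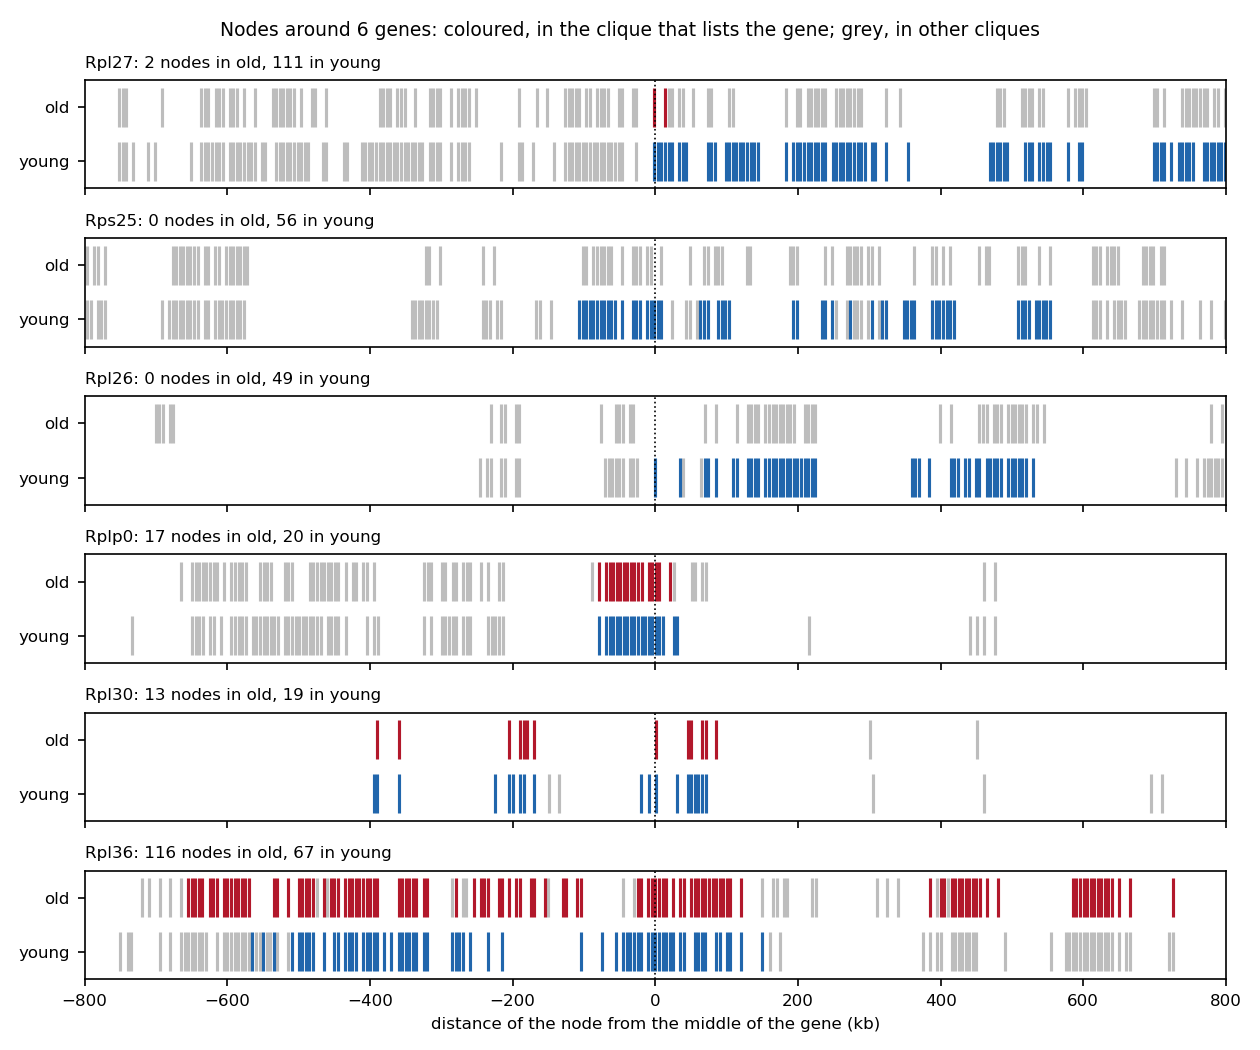
Nodes within 800 kb of 6 ribosomal protein genes (distance from the middle of the gene, kb), old above young. Coloured bars belong to the clique that lists the gene and grey bars to other cliques: around Rpl27 there were 120 nodes in old and 168 in young, of which 2 and 80 belonged to its clique, while the clique of Rpl30 had 13 nodes in old and 19 in young.

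Other members were in cliques that shared many of their bins between the ages. The Jaccard index, shared nodes over nodes in either clique, had a median of 0.376 over the 45 genes listed at both ages and ranged up to 0.765. It was 0.5 or more for 14 genes, among them Rplp0, Rpl10a, Rpl30, Rpl29 and Rps15. No such index is given for all genes, so these values are not read as particular to ribosomal protein genes. All 8 companions of Rpl30 in young were still with it in old, as were all 6 of Rplp0 and 15 of 16 of Rpl29. Rpl39 was the 1 gene whose cliques shared no node.

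Whether a gene was listed went with whether the bin at its start was a node. Cliques without a gene are marked nonpromoter, so listing appears to rest on promoters, and this agreement is not a result about these genes. The promoter set used here held an entry with an annotated start for 48 members, and the others could not be placed. The start bin was a node for 33 of them in old and for all 48 in young, so 15 had a start node in young only and none in old only. All 48 were listed in young, and the 3 members listed in old only had no entry in that promoter set. Listed genes nearly always had a start node. The full share in young and the lack of old-only start nodes thus largely follow from which genes entered. Those 15 were Rpl3l, Rpl6, Rpl7a, Rpl23, Rpl26, Rpl31, Rpl35, Rpl35a, Rpl36a, Rpl39, Rps6, Rps12, Rps19, Rps25 and Rps26. Among 7690 protein-coding genes listed at either age, the start bin was a node for 69.2% in old and 86.0% in young. That set was not limited to genes listed in young, and 643 of its genes had a start node in old only. Among genes with 1 annotated start, 69.2% of the 39 ribosomal protein genes with a young start node kept it in old, beside 70.2% of all such genes. In that set 27 of 28 members listed in old had an old start node, and none of the 11 members that were not listed had one. Over all protein-coding genes with 1 annotated start, 92.2% of those listed in old had an old start node, as did 229 of the 10166 not listed. The median number of nodes within 50 kb of the start bin was 8 in old and 11 in young for members, and 7 in old and 9 in young for all genes. In the bin 5 kb downstream of the start a node was present for 37.5% of members in old and 70.8% in young, beside 43.7% of all genes in old and 56.9% in young. Other flanking bins differed less, and in some upstream bins the order was reversed, as at 45 kb with 45.8% of members in old and 43.75% in young. That all 48 members were listed in young, unlike the 7690 genes, may bear on the flanking bins too.

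**Figure D4:**
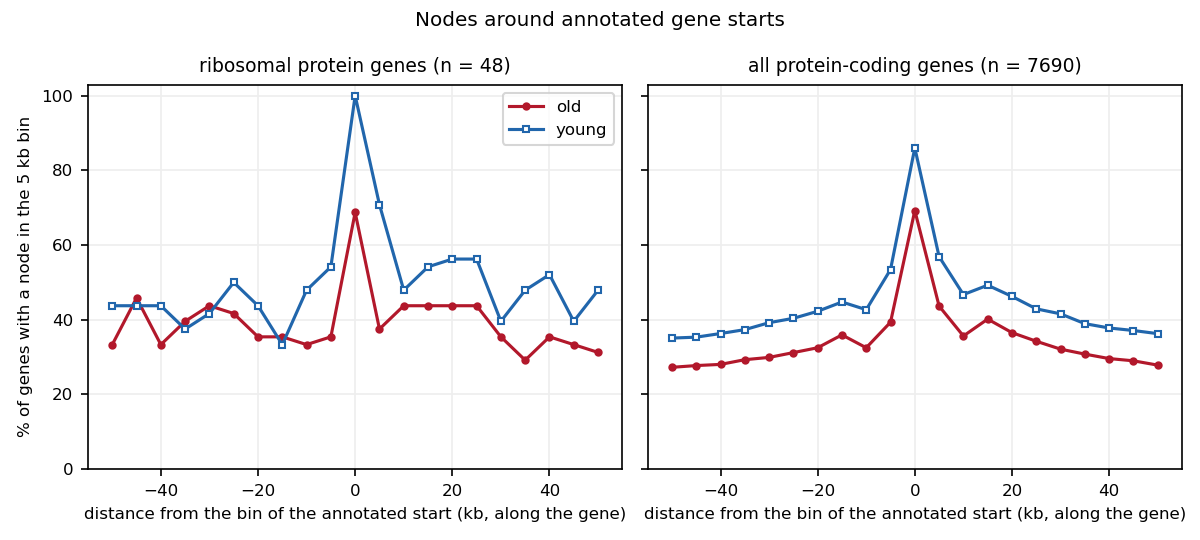
Share of genes (%) with a node in each 5 kb bin by distance from the bin of the annotated start (kb), old in red and young in blue, for 48 ribosomal protein genes (left) and 7690 protein-coding genes (right). Old lies below young at the start in both panels, 68.8% against 100% for ribosomal protein genes and 69.2% against 86.0% for all genes. All 48 ribosomal protein genes drawn were listed in young, so the 100% largely follows from which genes entered.

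Position gave a milder picture than listing. Within 2500 bp of the annotated gene, 55 members had a node in old and 65 in young, and 12 had a young node and no old node (17.9%, background 12.8%). Of the members with a young node there, 81.5% had an old one too, beside 86.5% of all genes. Of the 19 members listed in young only, 7 (36.8%) still had an old node within 2500 bp, beside 49.1% of 2433 genes listed in young only. They were Rpl3l, in bins of the old clique of 51 nodes that listed its neighbour Rps2, Rpl7a beside an old clique of 47 nodes, Rps19 beside one of 8 nodes, and Rpl6, Rpl7, Rpl23a and Rpl35 beside cliques of 2 to 4 nodes.

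Promoter features known for the family were found both in genes that were and in genes that were not listed in old. Shown are 60 bases around the annotated start, 40 before it and 20 from it onward, 5′ to 3′ on the gene's strand, from RefSeq for GRCm38.p6. Capitals mark a run of pyrimidines led by a C, at least 5 bases long, that begins within 5 bases of the annotated start. The first 3 genes were listed in young only, the next 2 had cliques of like size at both ages, Rpl38 had the larger clique in old, and Rpl27 had the lowest log2 value and no such run.
Rps6 (chr4:86857348-86857407, - strand): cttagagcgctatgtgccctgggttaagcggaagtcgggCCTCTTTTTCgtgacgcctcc
Rpl31 (chr1:39367811-39367870, + strand): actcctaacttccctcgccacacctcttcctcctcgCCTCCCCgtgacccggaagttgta
Rps26 (chr10:128626487-128626546, - strand): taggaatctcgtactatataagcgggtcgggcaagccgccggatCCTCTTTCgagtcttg
Rpl27a (chr7:109519155-109519214, + strand): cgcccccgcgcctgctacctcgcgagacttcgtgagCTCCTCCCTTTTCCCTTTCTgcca
Rpl13a (chr7:45128726-45128785, - strand): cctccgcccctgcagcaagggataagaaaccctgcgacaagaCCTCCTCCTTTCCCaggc
Rpl38 (chr11:114668540-114668599, + strand): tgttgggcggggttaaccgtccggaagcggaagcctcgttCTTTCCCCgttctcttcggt
Rpl27 (chr11:101442205-101442264, + strand): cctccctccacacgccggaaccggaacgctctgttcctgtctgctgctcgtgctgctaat

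Such a run was found for 23 of the 48 members with an entry (47.9%), 5 to 20 bases long with a median of 9, and for 18.7% of 17492 protein-coding genes. Other motifs were searched on both strands from 250 bases before the start to 50 after it. CCGGAAG, the kind of site bound by the ETS factor Gabpa, was in 41.7% of members and 11.9% of all promoters. AAGATGG, the core of the site of Yy1, was in 16.7% of members and 6.37% of all promoters. GGGCGG, a box of Sp1, was in 56.2% of members and 46.3% of all promoters. TATAAA was in 12.5% of members and 13.3% of all promoters, and CACGTG, the E box of Myc, in 8.33% of members and 7.90%. A match of letters is a description of the window and not a bound site. Among the 23 genes with the pyrimidine run 5 were not listed in old, and among the 25 without it 9 were not. Among the 20 genes with CCGGAAG 7 were not listed in old, and among the 28 without it 7 were not.

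Genes that make or control ribosomes were described beside the ribosomal proteins, from 6 lists. The counts of each list stand beside 78.5% smaller and 17.9% larger in old over all genes, whose median was -0.93. Ribosomal proteins under other names had a median log2 value of -0.05, with 4 of the 5 listed smaller in old. Fau, which yields Rps30, had 35 nodes in old and 23 in young, and Rack1, a scaffold on the small subunit, had 45 in old and 50 in young. Rpl36al had 6 nodes in old and 10 in young. Other genes with TOP mRNAs had a median of -0.77, with 14 of 18 smaller and 3 larger in old. The elongation factor Eef2 had 14 nodes in old and 185 in young, Naca, which binds nascent proteins at the tunnel exit, had 2 in old and 159 in young, and Eef1d and Eef1g were listed in no old clique and in 99 and 83 nodes in young.

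In the mTORC1 arm that acts on these mRNAs the median was -0.81, with 9 of 13 smaller and 3 larger in old, beside 78.5% and 17.9% of all genes. Rps6kb1, the kinase that phosphorylates Rps6, was listed in no old clique and in 67 nodes in young, and Akt1s1, an inhibitor within mTORC1, in none in old and 72 in young. Tsc2 had 2 nodes in old and 109 in young. Eif4e, the cap-binding factor, had 38 nodes in old and was listed in no young clique. Mtor, named after its values were seen, had 26 nodes in old and 5 in young. The kinase and its regulators therefore stood on both sides of 0.

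For the RNA polymerase I machinery, which makes ribosomal RNA, the median was -1.52, with 10 of 13 smaller and 2 larger in old. Polr1a, the largest subunit, was listed in no old clique and in 143 nodes in young, and Polr1b in none in old and 15 in young. Polr1e had 9 nodes in old and was listed in no young clique. Taf1d was listed in no old clique and in 7 nodes in young. Ribosome assembly factors had a median of -1.24, with 24 of 29 smaller and 3 larger in old. Bop1, Pes1, Rpf2 and Heatr1, which act on ribosome precursors in the nucleolus, were listed in no old clique and in 99, 35, 80 and 36 nodes in young. Transcription factors of ribosomal protein promoters had a median of -0.83, with 9 of 10 smaller in old. Sp1 had 8 nodes in old and 80 in young, Zbtb7a had 14 in old and 185 in young, Tbp had 2 in old and 14 in young, and Tbpl1 was listed in no old clique and in 2 nodes in young. Gabpb1, named after its values were seen, was the 1 larger in old, with 20 nodes in old and 17 in young. All 6 medians lay below 0, as did that of all genes, -0.93, of which 78.5% were smaller in old and 17.9% larger.

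**Figure D5:**
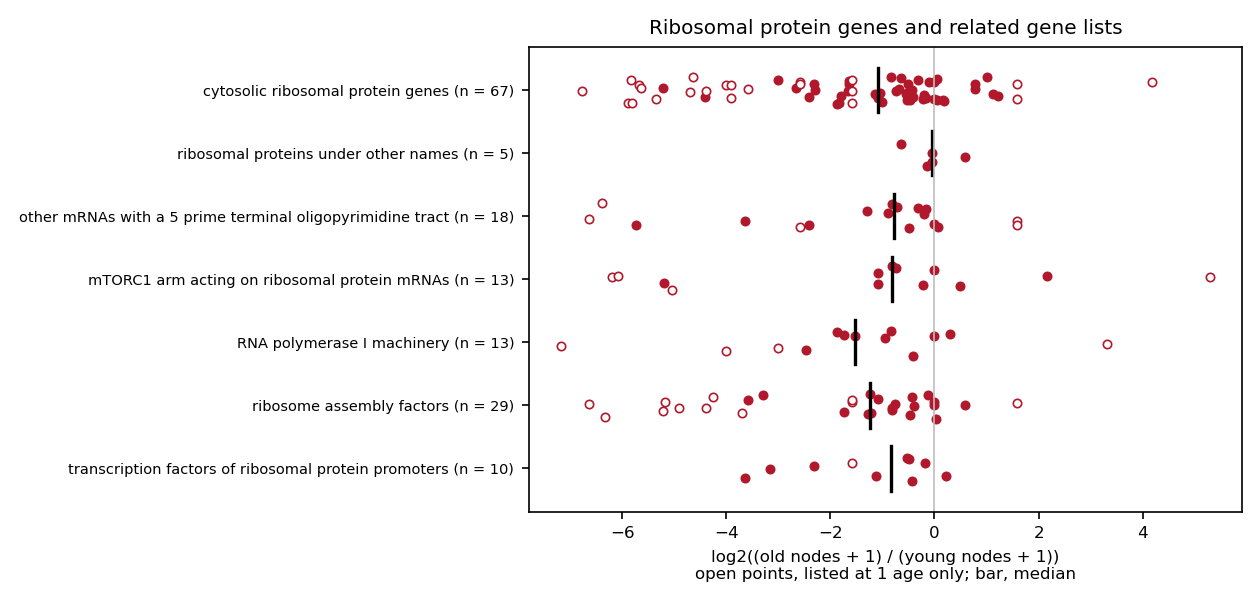
Log2((old nodes + 1)/(young nodes + 1)) of each gene listed at either age, for the 67 ribosomal protein genes and 6 related lists. Black bars are medians, between -0.05 and -1.52 for the 6 lists, and open points are genes listed at 1 age only.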

How the data were processed

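The authors deposited, per the file headers, a table of cliques (number of nodes, gene names, node names) and a table of node positions for each age. The deposited node number of a clique is a whole-number count. The submitters' processing notes name Bowtie2 and HiC-Pro, without versions, and the builds GRCm38 and mm10. Not given in the sources used here are the loop caller, its thresholds, the clique method, the promoter window, the read depth and how libraries were combined. Each network was taken to pool its age's 6 libraries.

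Gene names were split on semicolons and matched to RefSeq for GRCm38.p6, the assembly of mm10 (12957 names matched). The pseudocount was 1, and for sizes divided by the mean of their age it was added after the division. A gene span was the annotated gene with 2500 bp on each side. Intervals are Wilson 95% intervals, computed in Python 3.11.15 with numpy 2.4.6 and scipy 1.17.1. Scripts were tested on simulated data. The members, the 6 gene lists, the 6 marker lists and the motifs were chosen with earlier results of these data known. All members could be named; of each list, the up to 4 with the largest absolute log2 value were named, and any other is a choice made after values were seen. Alternatives covered the pseudocount, scaling, small cliques, gene position, members listed at both ages, shared cliques and the set of names. Values of some members and list genes are not reported here, but they are part of the counts and medians. Promoter entries were found for 48 of 67 members.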

Additional observations from a re-analysis of the deposited data

How the results depend on the processing

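The median of the members stayed below 0 under each alternative, but single members did not all keep their direction. Over the age mean 15 that were smaller or equal as listed became larger in old. By position Rpl3 and Rps29 became smaller in old. Rpl7a became larger by position, with 47 nodes in old and 14 in young, and Rpl7 became equal, with 2 at each age. This median log2 value, -1.08 as listed, was -0.67 with a pseudocount of 5, -0.25 with sizes divided by the mean of their age, -0.15 when centred on the median of all genes, -1.11 with cliques of at least 3 nodes, -1 by position within 2500 bp, -0.53 for members listed at both ages, -1.11 with 1 member per pair of cliques and -0.92 with ribosomal protein genes of other names added. The 53 members smaller in old became 34 of the 45 listed at both ages, by construction. The 12 larger in old became 27 over the age mean and 31 when centred, where 41.4% and 50.0% of all genes were larger. Members at log2 -1 or lower, 17 as listed, became 5 over the age mean and 7 when centred. Over the age mean the pseudocount of 1 was added to the divided sizes, where it weighs more and draws values toward 0. The median and the counts past a threshold under that setting therefore reflect both the scaling and the pseudocount, while the direction of a member does not depend on it. Those at 1 or higher, 3 as listed, became 0 with a pseudocount of 5, 1 over the age mean, 7 when centred and 1 with at least 3 nodes. The 19 in young only became 12 by position. The causes were not tested beyond what each setting does by construction. No paired analysis was possible because each age is 1 network. Unknown depth limits every absolute difference between the ages.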
